A study of Mus musculus and Homo sapiens with 22 samples.

Results

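The 5 human genes described here were chosen by their change in these data: SNED1 (ENSG00000162804.9), CLEC2B (ENSG00000110852.4), FAM111B (ENSG00000189057.6), KRTAP2-3 (ENSG00000212724.2) and ESM1 (ENSG00000164283.8). They are 5 of the 42713 gene IDs counted in MDA-MB-231, a human triple-negative breast cancer cell line, and they were singled out as strong responders to 2 kinase inhibitors. Because the change of each gene in MDA-MB-231 decided its choice, every MDA-MB-231 value below is a description and carries no test. The files pair these IDs with no names, so the symbols are those given with the choice of the genes.

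The series measured RNA by sequencing in 22 libraries, 10 from MDA-MB-231 and 12 labelled 4T1, a mouse mammary tumour cell line taken from a female animal. MDA-MB-231 cells received the solvent DMSO, ENMD-2076 at 2.5 or 5 µM, or TAK901 at 1 or 2 µM for 24 h, with 2 libraries in each of the 5 groups. For cells labelled 4T1 the ENMD-2076 doses were 1.25 and 2.5 µM, beside DMSO and the same TAK901 doses and time, with 2 libraries a group and 4 for DMSO. The labels give no genotype or other agent, and do not state whether replicates are separate cultures, so spreads and p-values cover only the difference between these libraries.

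ENMD-2076 and TAK901 are small molecules known to inhibit the Aurora kinases, which organise the mitotic spindle and the separation of chromosomes. The former is also known to act on other kinases, among them receptors of vascular endothelial growth factor. The genes have unlike roles. SNED1 encodes a secreted glycoprotein of the extracellular matrix with a nidogen domain, and CLEC2B a C-type lectin of the cell surface that is a ligand of the NK cell receptor NKp80. FAM111B encodes a protease whose relative FAM111A is known for its role at DNA replication forks, KRTAP2-3 a keratin-associated protein of hair, and ESM1 the secreted proteoglycan endocan, best known from endothelial cells.

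The MDA-MB-231 libraries held 13.4 to 24 M counted reads. Replicates in them differed with a chi-square per degree of freedom of 4.43 to 8.12, except with TAK901 at 2 µM, where it was 54.2. The 12 libraries labelled 4T1 came in 2 sets by their names: every ENMD-2076 library belongs to set 1 together with the DMSO libraries numbered 1 and 2, and every TAK901 library to set 2 with the DMSO libraries numbered 3 and 4. Y-linked genes had 0 reads in the 6 libraries of set 1 and 1004 to 7021 in each of the 6 libraries of set 2, although the 4T1 line is of female origin. DMSO libraries of different sets differed with a chi-square per degree of freedom of 214 to 223, against 3.32 and 4.37 within the sets. Treated libraries were therefore set only against DMSO of the same set. The deepest of the other 4T1 libraries held 30.9 M reads, but those of TAK901 at 2 µM held only 3.75 and 6 M. Epithelial markers were present in every library labelled 4T1, with Epcam, Cdh1, Krt8 and Krt18 at 88 CPM (counts scaled to the depth of the library) or more but Krt14 from 0.295 to 56.4 CPM, while of 7 endothelial markers Emcn was at 0 throughout and none passed 2.39 CPM. Human marker genes could not be matched to IDs and were not analysed here.

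In MDA-MB-231, SNED1 and CLEC2B were higher and FAM111B, KRTAP2-3 and ESM1 lower than in DMSO with each compound at each dose. For none of the 5 genes did a treated library overlap the DMSO libraries in any of the 4 comparisons. The share of all tested genes without such overlap is not given here. With 2 libraries a group and genes chosen for this change, the separation is a description only. With ENMD-2076, 2 of the 5 genes were past 2-fold at 2.5 µM, both higher, and 4 at 5 µM, 2 higher and 2 lower. With TAK901 all 5 were past 2-fold at 1 µM and at 2 µM. Among the 14826 genes measured well enough to fit, 4.84% were higher and 2.02% lower by over 2-fold (a log2 fold change past 1) with ENMD-2076 at 2.5 µM. The shares were 6.08% and 2.04% at 5 µM. With TAK901 they were 8.13% higher and 3.2% lower at 1 µM, and 11.5% and 6.04% at 2 µM. Since the genes were picked for these contrasts, nothing is read from their counts against that background. FAM111B was lower with both compounds but past 2-fold only with TAK901. With ENMD-2076 it was 1.47-fold lower at 2.5 µM and 1.42-fold lower at 5 µM. KRTAP2-3 and ESM1 were also within 2-fold at 2.5 µM ENMD-2076, at 1.57- and 1.17-fold lower.

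**Figure D1:**
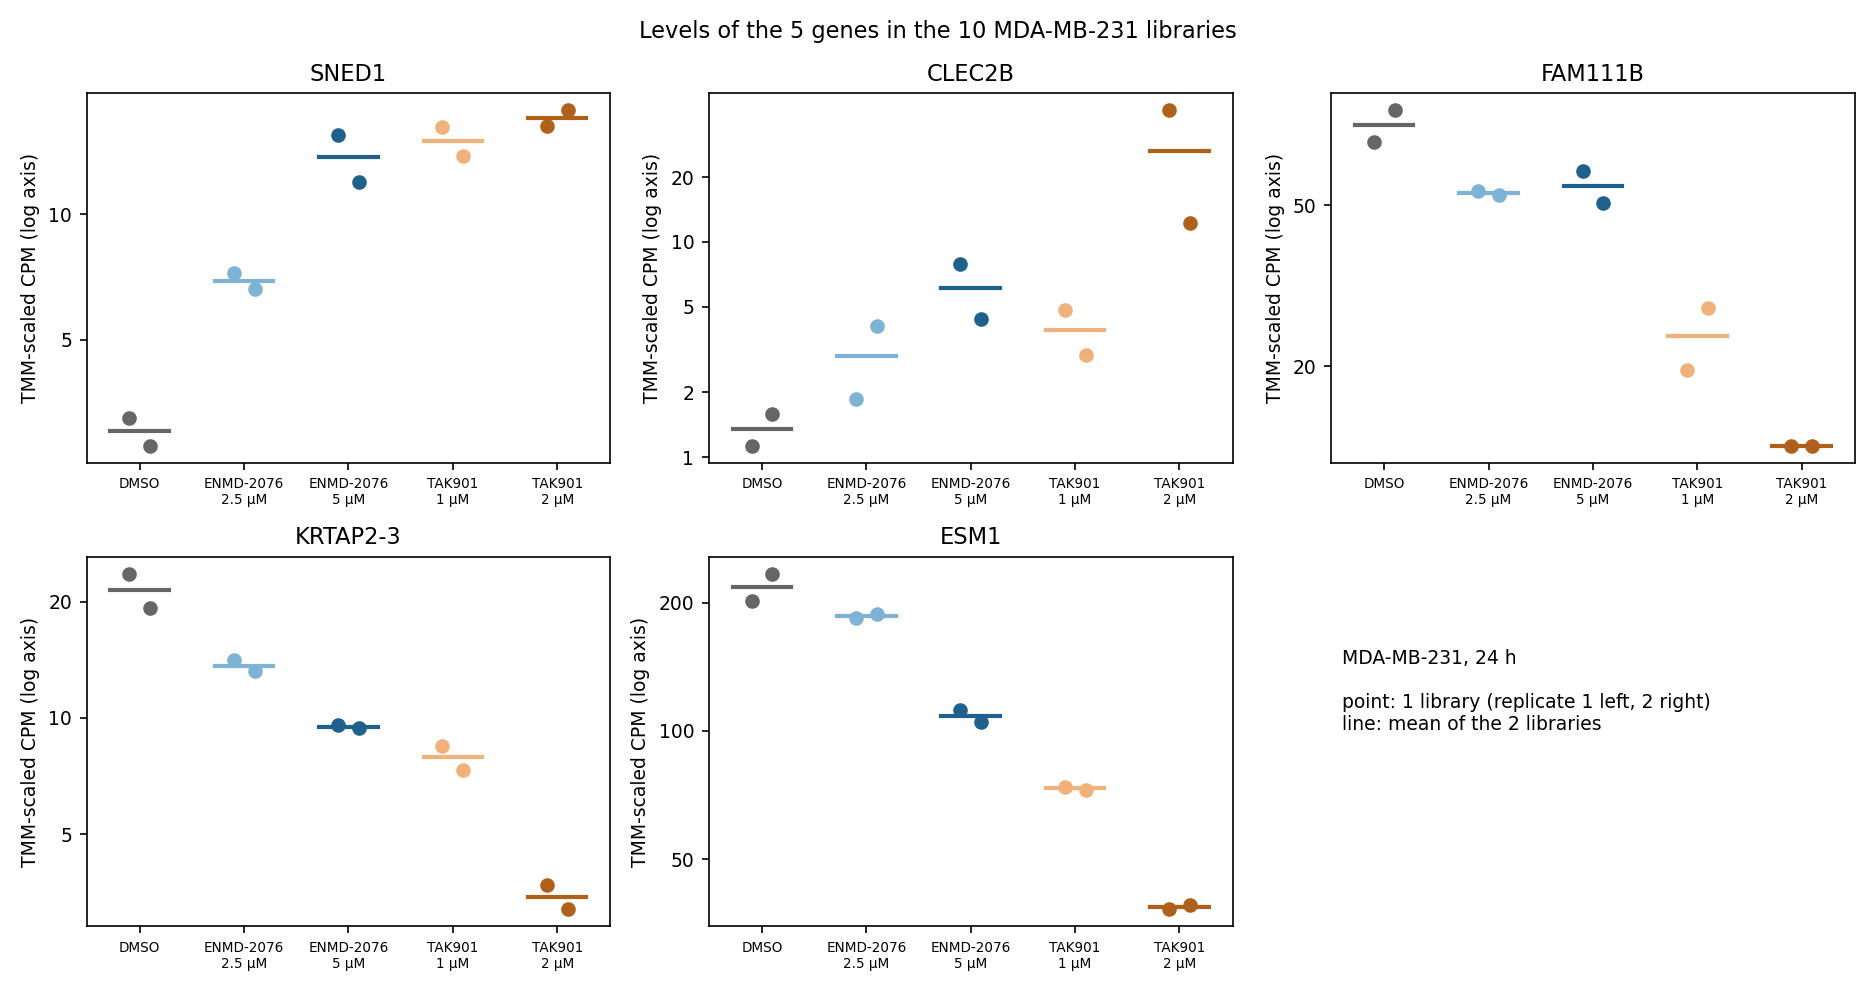
Level of each gene in the 10 MDA-MB-231 libraries, as CPM scaled by the trimmed mean of M-values (TMM) on log axes, with 1 point per library and a line at the mean of each group of 2. SNED1 and CLEC2B stand lowest in DMSO, and the other 3 genes stand highest there.

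SNED1, the matrix glycoprotein, had few reads in DMSO (43 and 44) and 90 to 288 in treated libraries. Its level, in CPM after TMM scaling as for all levels below, was 3.24 and 2.78 in the DMSO libraries. With ENMD-2076 it was 7.24 and 6.62 CPM at 2.5 µM and 15.5 and 12 CPM at 5 µM. With TAK901 it was 16.2 and 13.8 CPM at 1 µM and 16.3 and 17.8 CPM at 2 µM. All 8 treated libraries stood above both DMSO libraries, and the ENMD-2076 doses were apart from each other. The log2 fold changes against DMSO were 1.21 (SE 0.24) and 2.18 (SE 0.23) with the lower and higher dose of ENMD-2076, and 2.32 (SE 0.23) and 2.50 (SE 0.23) with those of TAK901. The lower TAK901 dose thus gave 92.6% of the log2 change at the higher dose, and the doses were only 0.19 apart (SE 0.20). For ENMD-2076 the lower dose gave 55.5%. In order of level the groups ran from TAK901 2 µM over TAK901 1 µM, ENMD-2076 5 µM and ENMD-2076 2.5 µM to DMSO. Of these neighbours TAK901 1 µM and ENMD-2076 5 µM overlapped. With total-count scaling the TAK901 doses overlapped too, at 16.3 and 14 CPM with 1 µM and 15.5 and 18.7 CPM with 2 µM.

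CLEC2B, the lectin that NK cells recognise through NKp80, had the lowest counts of the 5 genes in DMSO, at 15 and 25 reads. Its level was 1.13 and 1.58 CPM in DMSO, 1.86 and 4.05 CPM with 2.5 µM ENMD-2076, and 7.88 and 4.37 CPM with 5 µM. It was 4.84 and 2.97 CPM with 1 µM TAK901, and 40.9 and 12.2 CPM with 2 µM. The last group stood above all others, yet its 2 libraries were 3.35-fold apart, and only 2.47% of the tested genes differed as much between that pair. Replicates of CLEC2B were also 2.17-fold apart with 2.5 µM ENMD-2076. The log2 fold changes against DMSO were 1.04 (SE 0.63) and 2.13 (SE 0.60) with ENMD-2076, and 1.51 (SE 0.62) and 4.27 (SE 0.58) with TAK901. Without replicate 1 of TAK901 2 µM the last value was 3.15, and without replicate 2 of ENMD-2076 2.5 µM the first was 0.44. The lower TAK901 dose gave 35.3% of the log2 change at the higher dose, and the doses differed by 2.76 (SE 0.51). ENMD-2076 5 µM, TAK901 1 µM and ENMD-2076 2.5 µM followed in that order of level, each overlapping the next, with DMSO last.

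FAM111B, the protease gene, stood at 71.6 and 85.8 CPM in DMSO. With ENMD-2076 it was at 54.1 and 53 CPM at 2.5 µM and at 60.6 and 50.6 CPM at 5 µM, 2 groups that overlapped. With TAK901 it was at 19.5 and 27.9 CPM at 1 µM and at 12.7 CPM in both libraries at 2 µM. DMSO libraries stood highest, both ENMD-2076 doses in the middle, and the TAK901 doses lowest and apart from each other. The log2 fold changes were -0.56 (SE 0.16) and -0.50 (SE 0.16) with the lower and higher ENMD-2076 dose, a difference between doses of 0.05 (SE 0.16). They were -1.73 (SE 0.17) and -2.63 (SE 0.18) with TAK901, and at the higher TAK901 dose FAM111B held place 38 of 14826 from the low end. At 5 µM ENMD-2076 it held place 1285. The doses of the compounds are not matched, so these values stand side by side and no difference between compounds was tested.

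KRTAP2-3, the hair keratin-associated protein gene, belongs to a family with near-identical copies. Reads of such copies may have been shared out or discarded in counting, so its level is uncertain. It stood at 23.6 and 19.2 CPM in DMSO, 14.1 and 13.2 CPM with 2.5 µM ENMD-2076, and 9.59 and 9.4 CPM with 5 µM. With TAK901 it stood at 8.48 and 7.33 CPM at 1 µM and 3.7 and 3.2 CPM at 2 µM, from 49 and 50 reads. No group overlapped its neighbour in that order of 5 groups, from DMSO as the highest to TAK901 2 µM as the lowest. The log2 fold changes were -0.65 (SE 0.19) and -1.17 (SE 0.20) with ENMD-2076, and -1.43 (SE 0.20) and -2.63 (SE 0.22) with TAK901. The lower dose gave 55.1% of the log2 change of the higher dose for ENMD-2076 and 54.5% for TAK901.

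ESM1, the endocan gene, had the most reads of the 5 genes, 504 to 4445 a library. It stood at 202 and 234 CPM in DMSO, 184 and 188 CPM with 2.5 µM ENMD-2076, and 112 and 105 CPM with 5 µM. With TAK901 it was at 74 and 72.5 CPM at 1 µM and 38.1 and 39 CPM at 2 µM. Groups followed the order seen for KRTAP2-3, again without overlap between neighbours, and replicates of treated groups were at most 1.06-fold apart. At 2.5 µM ENMD-2076 the log2 fold change was only -0.23 (SE 0.11), a size that put ESM1 in place 2999 of 14826 from the low end. It was -1.01 (SE 0.11) at 5 µM, just past 2-fold, and -0.99 with total-count scaling, -0.90 without DMSO replicate 2 and -0.98 without replicate 2 of that dose. With TAK901 it was -1.58 (SE 0.11) and -2.50 (SE 0.12). For ENMD-2076 the lower dose thus gave 23% of the log2 change of the higher dose, against 63% for TAK901.

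**Figure D2:**
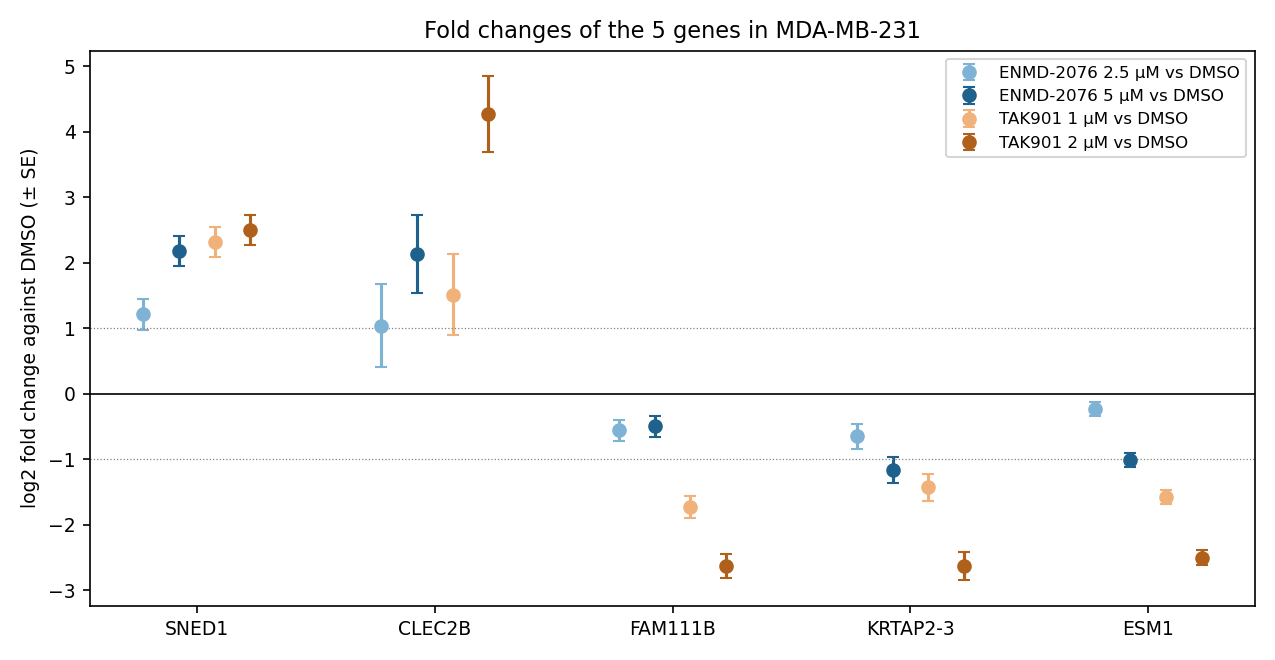
Log2 fold change of each gene against DMSO in MDA-MB-231, with the SE of the edgeR fit as bars and dotted lines at 2-fold. CLEC2B has the widest error, SNED1 differs little between the TAK901 doses, and FAM111B stays inside 2-fold with both doses of ENMD-2076.

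The place of the genes among all 14826 tested genes shifted with dose. With TAK901 at 2 µM, FAM111B, KRTAP2-3 and ESM1 stood in places 38, 39 and 48 from the low end, and CLEC2B and SNED1 in places 63 and 301 from the high end. SNED1 stood nearer the end with ENMD-2076 at 5 µM, in place 185, although its log2 fold change was smaller there.

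**Figure D3:**
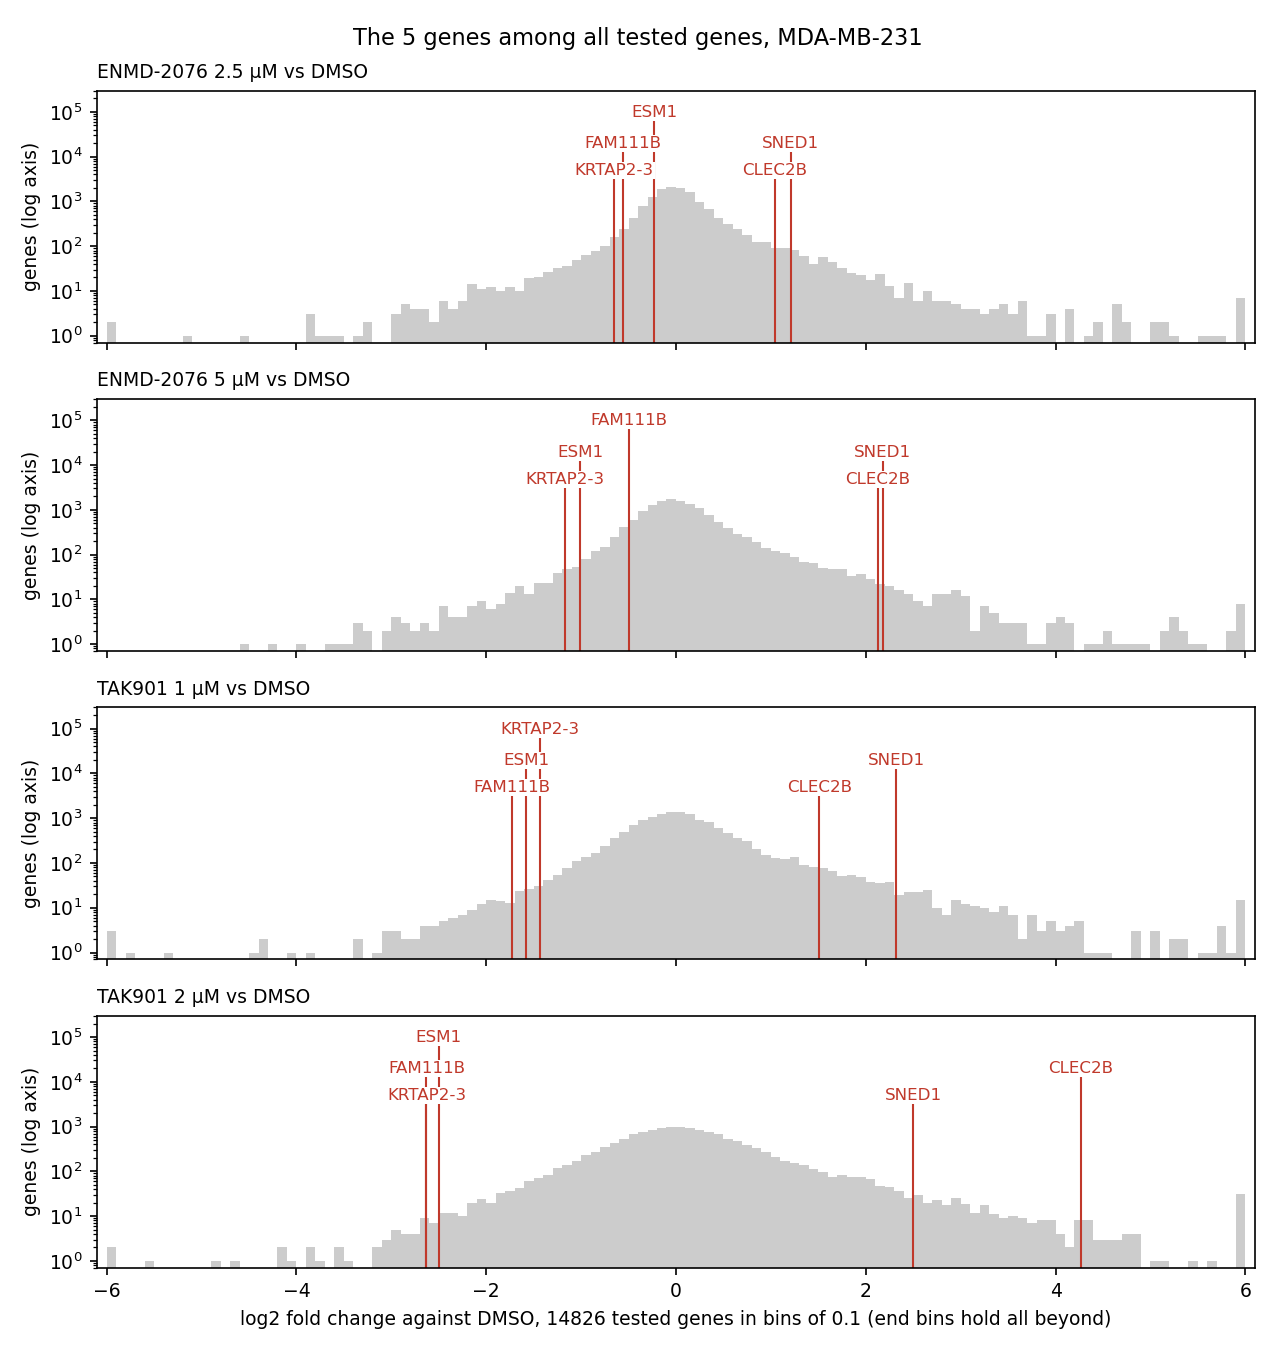
Distribution of log2 fold changes of all tested genes in each MDA-MB-231 comparison, with the number of genes per bin of 0.1 on a log axis and the 5 genes marked by lines. With TAK901 at 2 µM the 3 lower genes lie between -2.63 and -2.50 in the low tail, while ESM1 lies near the centre with ENMD-2076 at 2.5 µM.

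The genes were chosen by these same values, which partly fixes how alike they look, so ratios and correlations between them are descriptions. A ratio of reads within a library does not depend on how libraries are scaled. ESM1 reads per KRTAP2-3 read lay between 8.57 and 14.3 in all 10 libraries, a 1.67-fold span, while ESM1 was 5.66-fold and KRTAP2-3 6.2-fold lower with TAK901 at 2 µM than in DMSO. FAM111B did not follow ESM1 with ENMD-2076: its reads per ESM1 read were 0.294 and 0.282 at 2.5 µM and 0.543 and 0.48 at 5 µM. SNED1 reads per CLEC2B read ran from 0.399 to 4.65, both extremes with TAK901. SNED1 reads per ESM1 read, which set a higher against a lower gene, went from 0.0119 and 0.016 in DMSO to 0.429 and 0.456 with 2 µM TAK901.

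Pearson correlations of log2 CPM over the 10 libraries give the likeness of whole profiles. The libraries share their treatments in pairs and are those the genes were chosen from, so these values carry no p. ESM1 and KRTAP2-3 reached 0.968, ESM1 and FAM111B 0.947, and FAM111B and KRTAP2-3 0.917, against 0.756 for SNED1 and CLEC2B. KRTAP2-3 was 91st among the 14825 other genes in likeness to ESM1, so other genes followed ESM1 more closely than any of the 5. The gene most like SNED1 was ENSG00000164251.4 (r = 0.986), with log2 fold changes of 0.75 at 5 µM ENMD-2076 and 0.80 at 2 µM TAK901. For CLEC2B it was ENSG00000198839.5 (r = 0.985), at 0.47 and 1.02. FAM111B was most like ENSG00000128595.12 (r = 0.995), at -0.14 and -1.22, and ESM1 most like ENSG00000169299.9 (r = 0.994), at -0.37 and -1.03. The 3 genes most like KRTAP2-3 had r between 0.99 and 0.993. All of these followed the pattern at a smaller size, and the files pair none of them with a name.

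Of the 5 genes, 2 had a mouse gene of the same symbol in the 4T1 tables, Sned1 and Esm1, and no symbol Clec2b, Fam111b or Krtap2-3 was found. Sned1 (ENSMUSG00000047793.7) lies at chr1:93235841-93301065 and Esm1 (ENSMUSG00000042379.8) at chr13:113209659-113218098, both on the plus strand of GRCm38. Esm1 had 0 reads in all 12 libraries, which allows levels of up to 0.0966 CPM in the deepest library and 0.716 CPM in the shallowest by counting error alone. ESM1, the most read of the 5 genes in MDA-MB-231, thus had no detectable mouse counterpart at this depth.

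Sned1 was measured in every library labelled 4T1, and its direction with ENMD-2076 differed between the 2 labelled doses. The growth protocol gives other doses than these labels, and each dose is a group of 2 libraries. In set 1 it stood at 22 and 23 CPM in DMSO, 29.2 and 32.7 CPM with 1.25 µM ENMD-2076, and 2.9 and 3.72 CPM with 2.5 µM. The groups did not overlap, with the lower dose above DMSO and the higher dose below it. Sned1 rose by a log2 fold change of 0.47 (SE 0.14) at 1.25 µM (adjusted p = 0.00767, edgeR quasi-likelihood test, Benjamini-Hochberg over 15375 genes). It fell by 2.78 on the log2 scale (SE 0.19) at 2.5 µM (adjusted p = 5.0e-14, same edgeR test). The rise missed the threshold without DMSO replicate 1 (log2 fold change 0.43, adjusted p = 0.0521) and without replicate 2 of 1.25 µM (0.38, adjusted p = 0.0863). Among all tested genes 22.6% were called higher and 23.2% lower at 1.25 µM, and 33.2% and 37.1% at 2.5 µM, so a call was common in these contrasts.

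The 2.5 µM ENMD-2076 libraries labelled 4T1 stood apart in scaling. Their TMM factors were 0.766 and 0.784, against 0.989 to 1.12 in the other 4T1 libraries, and scaling by total counts moved the median of all genes by -0.36 on the log2 scale. With total-count scaling Sned1 stood at 2.22 and 2.91 CPM at 2.5 µM, again below DMSO at 21.8 and 22.7 CPM.

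In set 2 Sned1 stood at 7.65 and 8.05 CPM in DMSO, 9.03 and 7.98 CPM with 1 µM TAK901, and 6.03 and 9.31 CPM with 2 µM. All 3 groups overlapped. The log2 fold changes were 0.11 (SE 0.16, adjusted p = 0.805) at 1 µM and -0.09 (SE 0.22, adjusted p = 0.863) at 2 µM by the edgeR test. Of all tested genes 3.97% were called higher and 5.17% lower at 1 µM, and 5.63% and 9.28% at 2 µM. Those calls depend on single libraries. The 1406 genes called at 1 µM became 454 and 544 without DMSO 3 or 4, and 551 and 376 without replicate 1 or 2 of 1 µM. The 2292 genes called at 2 µM became 1306 and 1274 without DMSO 3 or 4, and 1245 and 1333 without replicate 1 or 2 of 2 µM. MDA-MB-231 SNED1 was 4.99- and 5.67-fold higher at the same TAK901 doses. The difference between the human and the mouse gene was not tested, since the counts come from different gene models and organisms. DMSO levels of Sned1 themselves were 2.86-fold higher in set 1 than in set 2.

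**Figure D4:**
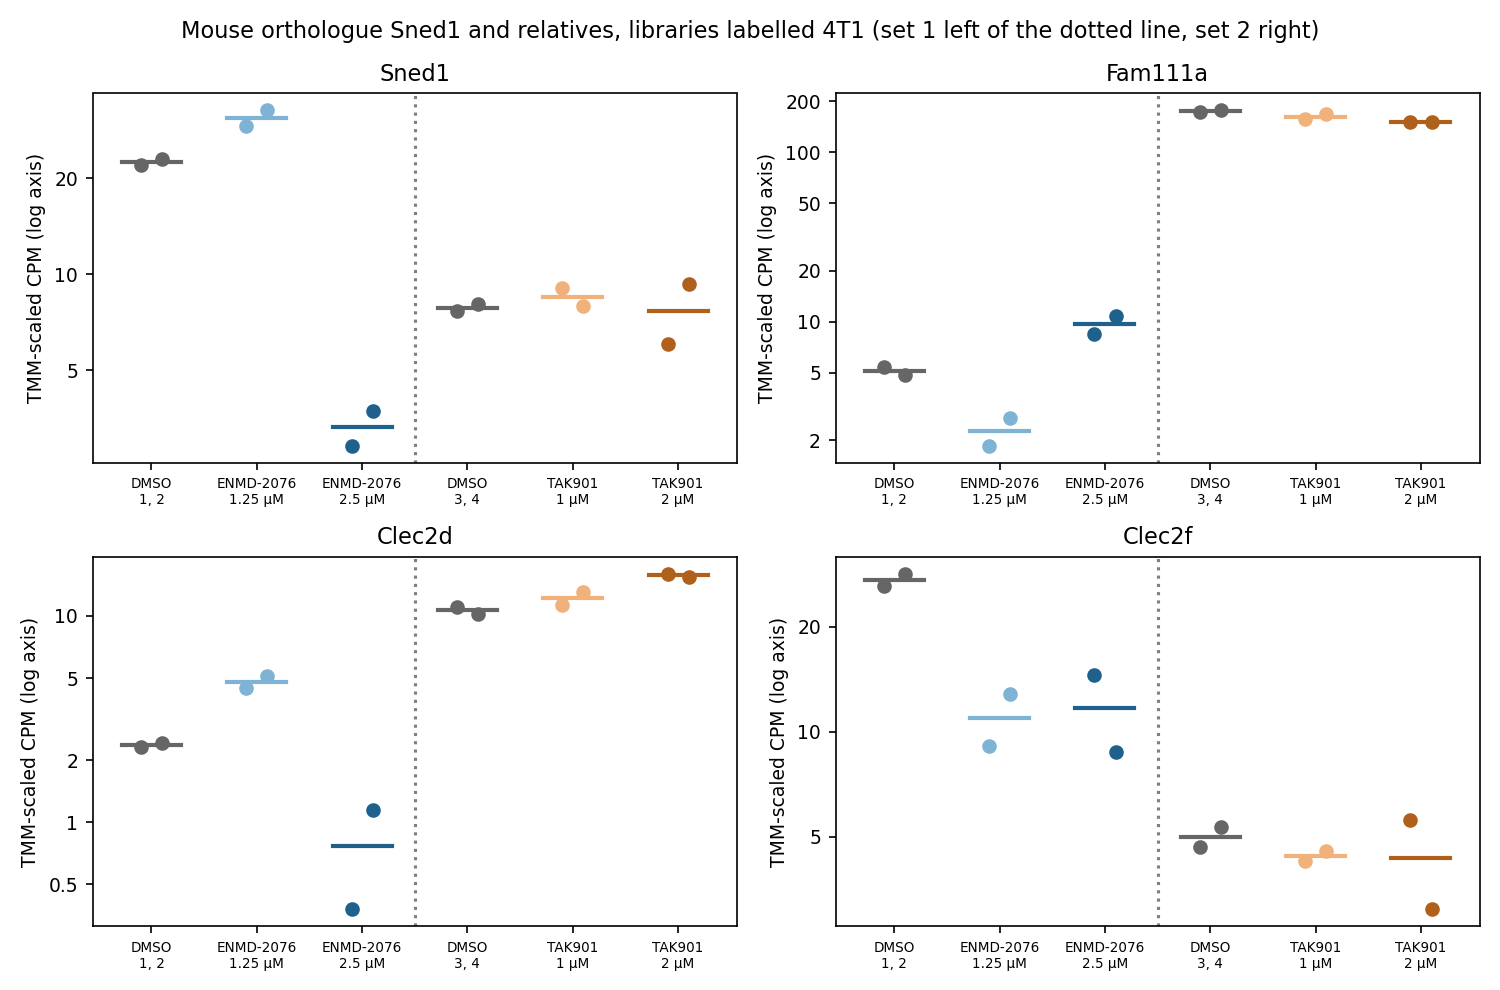
Level of mouse Sned1 and of 3 relatives of the other genes in the 12 libraries labelled 4T1, as TMM-scaled CPM on log axes, 1 point per library and a line at each group mean, with set 1 on the left and set 2 on the right of the dotted line. Sned1 and Clec2d are above DMSO at 1.25 µM and below it at 2.5 µM ENMD-2076, Fam111a is the reverse, and set 2 levels start from another DMSO level.

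Fam111a, the mouse relative of FAM111B, had the opposite order of doses to Sned1. In set 1 its DMSO libraries were at 5.41 and 4.89 CPM, against 1.86 and 2.71 CPM with 1.25 µM ENMD-2076, and 8.46 and 10.9 CPM with 2.5 µM. Its log2 fold change was -1.09 (SE 0.18, edgeR adjusted p = 1.1e-05) at the lower and 0.88 (SE 0.16, adjusted p = 8.1e-06) at the higher dose. With total-count scaling Fam111a rose by 0.52 at the higher dose (edgeR adjusted p = 0.00371). In set 2 it stood at 172 and 177 CPM in DMSO, 33.9-fold above set 1, and at 150 to 168 CPM with TAK901. Those 4 libraries lay below both DMSO libraries, but neither dose passed the test (edgeR adjusted p = 0.498 and 0.072; at 2 µM 0.0491 and 0.0464 without replicate 1 or 2 of 2.5 µM ENMD-2076).

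Clec2d, a mouse lectin gene of the family of CLEC2B, was at 2.32 and 2.42 CPM with DMSO in set 1, 4.47 and 5.09 CPM with 1.25 µM ENMD-2076, and 0.379 and 1.15 CPM with 2.5 µM. It rose by a log2 fold change of 1.03 (SE 0.25, edgeR adjusted p = 0.00119) and fell by 1.74 (SE 0.39, adjusted p = 2.1e-04). The fall rests on 6 and 13 reads at 2.5 µM, and was -1.01 (adjusted p = 0.0334) without replicate 1 and -2.59 (adjusted p = 2.3e-05) without replicate 2 of that dose. The rise did not pass when set 1 was fitted alone (1.01, edgeR adjusted p = 0.0521), nor with a replicate block (1.00, adjusted p = 0.0795). With TAK901 Clec2d was at 11.3 and 13.1 CPM at 1 µM and 16 and 15.5 CPM at 2 µM, above 11.1 and 10.2 CPM in set 2 DMSO without passing (edgeR adjusted p = 0.631 and 0.0758; at 2 µM 0.0285 and 0.0301 without replicate 1 or 2 of 2.5 µM ENMD-2076). Clec2f, annotated as a transcribed pseudogene, fell with both ENMD-2076 doses, by 1.29 (SE 0.19) and 1.20 (SE 0.19) on the log2 scale (edgeR adjusted p = 1.0e-06 and 2.3e-06). Clec2l, at under 1 CPM, passed in no comparison.

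Between the ENMD-2076 doses labelled 4T1 35.4% of tested genes were called higher and 37.8% lower at 2.5 µM than at 1.25 µM. Sned1 was lower by 3.25 (SE 0.19) and Clec2d by 2.76 (SE 0.34) on the log2 scale in that contrast, and Fam111a higher by 1.97 (SE 0.17), each called by the edgeR test. DMSO levels of Nid1, which shares the nidogen domain with Sned1, were 1.07 CPM in set 1 and 370 CPM in set 2. It fell with 2.5 µM ENMD-2076 by 1.38 (SE 0.61, edgeR adjusted p = 0.0445), a call that did not hold with DESeq2 (adjusted p = 0.353) or without replicate 1 of that dose (log2 fold change -0.11, adjusted p = 0.905; -7.32 without replicate 2). It also fell with 2 µM TAK901 (log2 fold change -0.51, SE 0.09, edgeR adjusted p = 1.7e-04; 0.792 with DESeq2). Clec2e, Clec2g, Clec2h, Clec2i, Krtap2-4 and Nid2 had too few reads to test.

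Genes of the surroundings in which SNED1 and ESM1 are known to act were read in the 4T1 tables from 2 lists. The genes named from each list are its called genes with the largest rise and largest fall at the higher dose of each compound. Their large sizes and small p-values owe partly to that choice. Of 35 matrix glycoproteins, the class of Sned1, 30 were tested. With ENMD-2076, 8 of these 30 rose and 9 fell at 1.25 µM, shares of 26.7% and 30% beside 22.6% and 23.2% of all tested genes. At 2.5 µM 9 rose and 14 fell, 30% and 46.7% beside 33.2% and 37.1%. The shares that rose lay near the background and those that fell lay above it at each dose, a difference that was not tested. The median log2 fold change was 0.00 at each dose against 0.00 and -0.02 over all tested genes. With TAK901, 5 rose and 6 fell at 1 µM (16.7% and 20%, beside 3.97% and 5.17%), and 4 rose and 10 fell at 2 µM (13.3% and 33.3%, beside 5.63% and 9.28%), with medians of -0.04 and -0.12 against 0.00 and -0.02 over all tested genes. Tnc, the matrix protein tenascin C, rose by 3.79 (SE 0.39, edgeR adjusted p = 3.8e-10) with 2.5 µM ENMD-2076 and fell by 1.29 (SE 0.42, adjusted p = 0.0334) with 2 µM TAK901 on the log2 scale. Tgfbi fell by 4.07 (SE 0.81, edgeR adjusted p = 4.9e-05) with the former, from 27 and 21 reads in DMSO to 1 read in each library. From so few reads the summed ratio was 18.4-fold lower, with an exact 95% counting interval of 4.82 to 156. Postn, periostin, rose by 1.27 (SE 0.43, edgeR adjusted p = 0.0446) with the latter. Without replicate 1 of 2 µM TAK901 the value of Tnc there was -0.65 (adjusted p = 0.543) and that of Postn 1.31 (adjusted p = 0.266). When single libraries were left out, the TAK901 counts ran from 3 to 5 higher and 3 to 7 lower at 1 µM, and from 3 to 4 higher and 5 to 10 lower at 2 µM, each lowest without DMSO 3.

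Of 25 genes of VEGF signalling and endothelial tip cells, where ESM1 is a known marker, 23 were tested. With ENMD-2076, 8 rose and 8 fell at 1.25 µM, 34.8% each beside 22.6% and 23.2% of all tested genes. At 2.5 µM 11 rose and 9 fell, 47.8% and 39.1% beside 33.2% and 37.1%. Medians were -0.04 and 0.19, against 0.00 and -0.02 over all tested genes. With TAK901, 1 rose and 6 fell at each dose, 4.35% and 26.1%, beside 3.97% and 5.17% at 1 µM and 5.63% and 9.28% at 2 µM. Medians were 0.04 and -0.05, against the same all-gene values of 0.00 and -0.02. At 1 µM as few as 2 fell without replicate 2 of that dose, and 0 rose without DMSO 3. Flt4, the receptor VEGFR-3, had 0 reads in set 1 DMSO and was at 7.33 and 11.2 CPM with 2.5 µM ENMD-2076, at least 41.4-fold higher against a floor of 3 reads per library. Angpt2, a ligand of the receptor Tie2, fell by 2.33 (SE 0.22, edgeR adjusted p = 7.9e-11) in the same comparison. Dll4, a Notch ligand, fell by 1.92 (SE 0.33, edgeR adjusted p = 1.0e-04) with 2 µM TAK901, where Angpt1 rose by 0.88 (SE 0.20, adjusted p = 0.00186). Summed endothelial markers moved from 0.378 and 0.53 CPM in set 1 DMSO to 1.39 and 3.45 CPM at 2.5 µM ENMD-2076, and epithelial markers from 3180 and 3240 to 2330 and 2410 CPM. The part of either in the list counts was not tested.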

How the data were processed

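RNA of 22 libraries was analysed from 1 table of raw counts per gene each, as the authors deposited them. Tools in the submitters' processing notes are HTSeq, TopHat, Bowtie, DESeq2 and FastQC 0.11.3, and the builds are hg38 and mm10. Annotation and strand setting: not given in the sources used here. Of 38924 mouse IDs 37607 matched GENCODE names (GRCm38). No human name table was used, so the human gene lists, relatives and markers were not analysed here. The planned count of called genes in MDA-MB-231 is not reported, since no result uses it. HTSeq summary lines, 40.7 to 57.3% of records in set 2, were removed.

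Each line was fitted with edgeR 4.0.16 (R 4.3.3): filterByExpr, TMM scaling and the quasi-likelihood test over all its libraries, with naming set as a term in 4T1, and two-sided p-values adjusted by Benjamini-Hochberg over all tested genes at a threshold of 0.05. Dividing a log2 fold change by the root of its F statistic gave the SE. Likeness is Pearson's r of log2 CPM (prior count 2). Limits of 3 reads cover counting error only. Alternatives were DESeq2 1.42.0, total-count scaling, no low-count filter, only the compared groups, no naming set term, a replicate block and leaving out each library; naming set 1 alone was added after seeing the data. Replicate numbers were taken as pairing libraries only if deviations of every pair of groups correlated above 0.1, which was not met. In MDA-MB-231 the correlations were 0.202, 0.236 and 0.282 among DMSO and both TAK901 doses, and -0.0956 to 0.0201 otherwise; in 4T1 they were -0.047 to 0.116.

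The 5 genes and all lists were chosen with earlier results of these data known. Named were the 5 genes, Sned1, Esm1 and mouse relatives with reads, the called list genes with the largest rise and fall at each higher dose, and the gene most like each member, with at most 2 higher and 2 lower unnamed IDs. The growth protocol gives other ENMD-2076 doses for 4T1 than the treatment labels, and the headers of those tables name neither compound nor dose as labelled; the labels were followed.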

Additional observations from a re-analysis of the deposited data

Results flagged for a closer look

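In the libraries labelled 4T1, 4 mouse genes differed between the 2 doses of ENMD-2076 by the edgeR quasi-likelihood test of that difference, with p-values adjusted by Benjamini-Hochberg over 15375 genes. Of all tested genes 35.4% were called higher and 37.8% lower at the higher dose, so a call was common in this contrast. Clec2f and Clec2l were tested too and not called (same edgeR test, adjusted p = 0.73 and 0.721). Sned1 was lower at 2.5 than at 1.25 µM by a log2 difference of -3.25 (SE 0.19, adjusted p = 4.9e-16). Clec2d was lower, at -2.76 (SE 0.34, adjusted p = 1.6e-08). Fam111a was higher, at 1.97 (SE 0.17, adjusted p = 8.3e-12). Nid1 was lower, at -2.06 (SE 0.53, adjusted p = 8.6e-04), from levels of 1.49 ± 0.943 and 0.487 ± 0.688 CPM (SD, n = 2) whose libraries overlapped. The TMM factors at 2.5 µM were 0.766 and 0.784, and the part of scaling in these differences was not tested. With total-count scaling Sned1 stood at 29.4 and 32.9 CPM at 1.25 µM and at 2.22 and 2.91 CPM at 2.5 µM. Clec2d stood at 4.51 and 5.12 against 0.29 and 0.901 CPM. Fam111a stood at 1.87 and 2.72 against 6.48 and 8.52 CPM, and Nid1 at 0.832 and 2.17 against 0 and 0.762 CPM.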

How the results depend on the processing

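For the 5 genes in MDA-MB-231, 304 alternative log2 fold changes stayed within the replicate SD, 11 moved and none reversed, and CLEC2B ran from 3.15 to 4.88 with 2 µM TAK901. Most fits without a single library dropped one outside the comparison. Where a compared library was dropped, the SD came from the same replicate differences, so few values could move past it. The 304 are therefore no measure of how firm the changes are. The number of the 5 past 2-fold with 2.5 µM ENMD-2076 ran from 1 to 2 when single libraries were left out. With 5 µM it ran from 3 to 4, and was 3 with total-count scaling, since ESM1 then missed 2-fold. With a replicate block the numbers past 2-fold were 2, 4, 5 and 5, as without it. CLEC2B with 2 µM TAK901 was then at 4.12. In 4T1 the block could be fitted in set 1 only. There 5933 and 9831 genes were called at the ENMD-2076 doses, against 6080 and 10012 in set 1 without it. Clec2d at 1.25 µM and Nid1 at 2.5 µM were not called with the block. Clec2d was not called there in set 1 without the block either. Genes called in 4T1 were 7056 and 10816 for the ENMD-2076 doses and 1406 and 2292 for those of TAK901. Without the naming set term, which merges DMSO libraries of both sets, they were 3101 at 1.25 µM, 0 at 1 µM TAK901 and 47 at 2 µM, Sned1 was at 1.03 with 1.25 µM and -0.83 with 1 µM TAK901, and directions reversed for Fam111a (-3.22 at 2.5 µM ENMD-2076, 0.86 and 0.74 with TAK901), Clec2d (-0.45 at 1.25 µM), Clec2l (-0.22 at 2 µM TAK901) and Nid1 (-6.87 at 1.25 µM, 0.79 and 0.49 with TAK901). With only the 2 compared groups, 3719 were called at 1 µM TAK901; the cause was not tested. Leaving out single libraries gave 376 to 1739 calls at 1 µM TAK901 and 1245 to 2582 at 2 µM. Sned1 then ran from 0.38 to 0.54 at 1.25 µM ENMD-2076 and from -0.39 to 0.25 at 2 µM TAK901, Clec2f from -0.69 to 0.15 and Clec2l from -5.73 to 0.80 at 2 µM TAK901, Clec2l from -0.30 to 0.70 and from -0.21 to 1.02 at the ENMD-2076 doses, and Nid1 from -0.37 to 1.01 at 1.25 µM. Low counts of CLEC2B, Clec2l and Nid1 in set 1, and the shallow 2 µM TAK901 libraries labelled 4T1, limit precision.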
